A study of Mus musculus with 12 samples.

Results

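Liver RNA was compared between 3 CORT-treated and 3 vehicle-treated (Veh) mice, and the response is described here across every gene whose mean reached 1 TPM in the Veh group, the CORT group or both. This rule took 11699 of the 55416 genes listed in the liver table, and used 6 of the 12 libraries of the series. The mice were male C57BL6/J, 8 weeks old at the start, and were injected subcutaneously once a day for 8 weeks with corticosterone (CORT, the main glucocorticoid of rodents) at 40 mg/kg, or with the same vehicle of DMSO, Tween-80 and water alone. Neither group carried a transgene or deletion, and each library was made from 50 mg of frozen whole liver, so that hepatocytes and all other liver cells were measured together. TPM is a relative abundance per length, summing to nearly the same total in each library, and read depth cannot be recovered from it. The hour of tissue collection is not given in the sources used here.

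Glucocorticoids enter cells and bind the glucocorticoid receptor, which moves to the nucleus and binds DNA at glucocorticoid response elements, switching on some genes and holding back others. In the liver they are known for raising the output of glucose from amino acids, for steering fat handling between meals, for modifying the acute phase response and for dampening inflammation. Lipid synthesis is set largely by the SREBP transcription factors, which are held in the endoplasmic reticulum by Insig proteins when sterols are plentiful, and fat burning by the receptor PPARα. The liver also has a daily clock and, in mice, many genes that differ between males and females under the pattern of growth hormone secretion.

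The tissue label held in all 6 libraries. Hepatocyte genes were abundant throughout, with Alb between 32823 and 59476 TPM, Apoa1 between 10611 and 17425 TPM and Ttr between 4176 and 6534 TPM. Only 4 of 21 genes of pancreas and intestine reached the limit of 1 TPM, and 1 of these, Apoa4, is also a liver gene. One library in each group stood apart. In Veh2 the summed TPM of the major urinary proteins, abundant liver products of adult male mice, was 39770, against 175000 in Veh1 and 125600 in Veh3, and it had the highest median of markers of stellate cells and fibroblasts, 0.71 above the Veh mean on the log2 scale. In CORT3 the median of PPARα targets was only 0.051 above the Veh mean, against 1.02 and 1.05 in the other CORT libraries, while the median of acute phase genes was higher there than in any other library. List counts that single libraries decide are also given with libraries left out.

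A gene was called a DEG when its adjusted p in limma, a linear model with a shared estimate of the spread, was 0.05 or less and its fold change over 1.5 on the log2(TPM + 1) scale. Of the genes tested, 810 were called (6.92%), of which 575 were higher (4.91%) and 235 were lower (2.01%) with CORT. With median-ratio scaling, in which a library's values are divided by its typical ratio to the geometric mean of all 6, 1012 genes were called (8.65%), 543 higher (4.64%) and 469 lower (4.01%). This scaling moved the median log2 fold change of all genes from 0.078 to -0.00049. The same direction was called both ways for 711 genes (6.08%), 478 higher and 233 lower, while 97 higher and 2 lower calls were lost with scaling, 65 higher and 236 lower calls were gained, and 0 were reversed. The 3 CORT values lay all above or all below the 3 Veh values for 3767 genes (32.2%), 2411 above and 1356 below. With scaling, 2135 genes lay above and 2148 below in this way. Here "rose by" and "fell by" give the size of a log2 fold change on that scale. Counts of calls over gene lists and families are given without scaling, and then with scaling where they differ. Counts of list or family members whose groups did not overlap are given without scaling only.

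**Figure D1:**
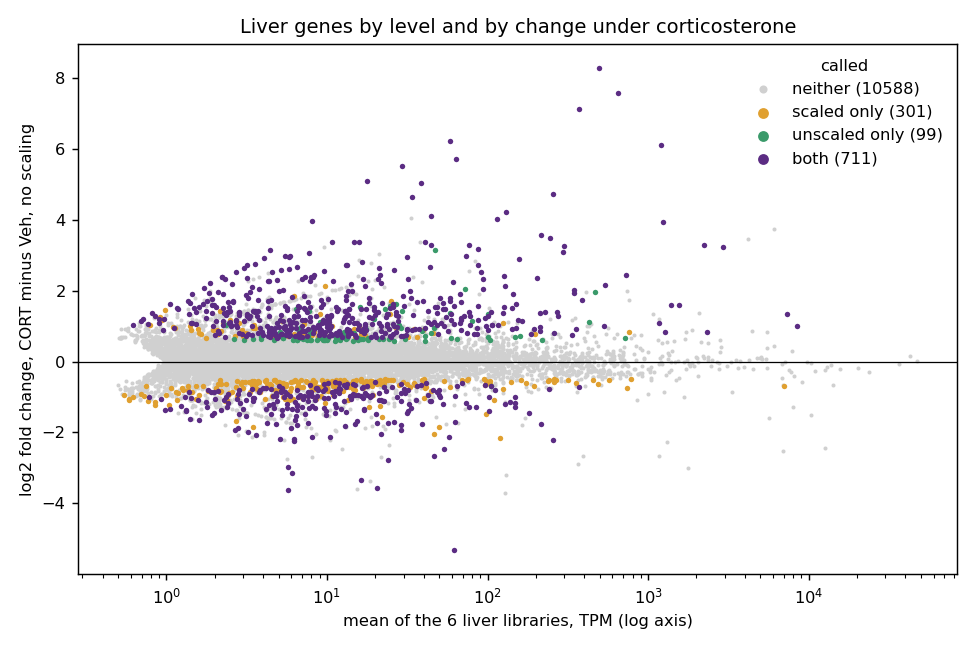
Each point is 1 of the 11699 tested genes, placed by its mean TPM over the 6 libraries (log axis) and by its log2 fold change, CORT minus Veh, without scaling. Colours separate the 711 genes called with and without median-ratio scaling, the 97 higher and 2 lower ones called only without it, and the 65 higher and 236 lower ones called only with it.

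Calls were found at every level of expression. Among the 6348 genes with a mean of 1 to 10 TPM, 257 were higher and 116 lower, 258 and 236 with scaling. Among the 126 genes over 1000 TPM 11 were higher and 0 lower, 1 lower with scaling. Genes of 10 to 100 TPM gave 242 higher and 101 lower calls among 3960, 211 and 183 with scaling. Genes of 100 to 1000 TPM gave 55 and 15 among 802, 49 and 35 with scaling. The 463 genes with a mean under 1 TPM over all libraries gave 10 and 3, 14 and 14 with scaling. All 463 passed the limit through 1 group only. Of the DEGs, 82 passed the limit of 1 TPM through the CORT group only and 28 through the Veh group only, so these had to differ between the groups and their direction is fixed by the limit.

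Textbook targets of the glucocorticoid receptor were called higher for 9 of 22 genes (40.9%), and 0 were lower, with and without scaling. The median log2 fold change of the 22 was 1.2. Fkbp5 (ENSMUSG00000024222), which encodes a co-chaperone that restrains the receptor, was at 7.14, 12.7 and 19.5 TPM in the Veh and 273, 249 and 221 TPM in the CORT libraries, with no overlap between the groups (log2 fold change 4.23, SE 0.32, limma adjusted p = 0.00178, and 4.14 with scaling, limma adjusted p = 0.00316). Zbtb16, a transcription factor, was at 3.5, 1.22 and 3.89 TPM in the Veh and 26.8, 20.4 and 23.4 TPM in the CORT libraries, again without overlap (log2 fold change 2.74, limma adjusted p = 0.00597). Pnmt, the enzyme that makes adrenaline from noradrenaline, was listed at 0 in every Veh library, and reached 13.3, 9.01 and 25.9 TPM with CORT. As Pnmt passed the limit of 1 TPM through the CORT group only, its direction was fixed. The metallothioneins Mt1 and Mt2, which bind zinc and copper, both rose. Mt1 was at 606 ± 293 TPM in Veh and 5231 ± 942 TPM in CORT (SD, n = 3), with a log2 fold change of 3.23, limma adjusted p = 0.00702, and Mt2 rose by 3.28 (limma adjusted p = 0.0342). Sgk1, a kinase of salt transport, and Dusp1, a phosphatase that switches off MAP kinases, rose by 1.18 and 1.48 (limma adjusted p = 0.0388 and 0.048). Tsc22d3 (log2 fold change 1.92, limma adjusted p = 0.0623) and Tat (1.21, limma adjusted p = 0.121) were not called. Nr3c1, the receptor itself, was at 8.67, 10.8 and 8.58 TPM in the Veh and 8.98, 7.63 and 11.4 TPM in the CORT libraries, which overlapped. The zinc transporter Slc39a14 rose by 1.29 (limma adjusted p = 0.00492), and 6 without Veh1, 7 without Veh2, 11 without Veh3, 6 without CORT1, 8 without CORT2 and 6 without CORT3 of the receptor targets were called higher in fits that each left out 1 library.

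Promoter windows of 300 bases, 250 before and 50 after each gene's start, were read from RefSeq (build GRCm38.p6) for 8803 of the 11652 tested gene symbols, and searched on both strands for the consensus glucocorticoid response element, a palindrome taken here as ACA and TGT with any 3 bases between them, and with G at the outer left and C at the outer right, each separated from them by 1 base of any kind. It was present in 11 of 436 genes called higher (2.52%), 0 of 162 called lower and 36 of all 8803 (0.409%). Among genes called with and without scaling these shares were 8 of 354 higher (2.26%) and 0 of 161 lower. The 11 genes were Amy1, Car14, Fam107a, Fyb2, Gm16573, Gm30173, Map3k6, Mt1, Serpina3c, Sgk1 and Slc10a6. These counts describe letters in a short window near the start, and receptor binding farther away was not looked at.

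The windows of 5 of these genes, chosen after their values were seen, are shown because the same element stands in each at another distance from the start. Capitals mark the element. Fam107a lies at chr14:8309730-8310029, minus strand, Mt1 at chr8:94178839-94179138, plus strand, Map3k6 at chr4:133240568-133240867, plus strand, Serpina3c at chr12:104153823-104154122, minus strand, and Sgk1 at chr10:21993640-21993939, plus strand. The element begins 118 bases before the start in Fam107a, 94 in Mt1, 181 in Map3k6, 75 in Serpina3c and 188 in Sgk1.
Fam107a: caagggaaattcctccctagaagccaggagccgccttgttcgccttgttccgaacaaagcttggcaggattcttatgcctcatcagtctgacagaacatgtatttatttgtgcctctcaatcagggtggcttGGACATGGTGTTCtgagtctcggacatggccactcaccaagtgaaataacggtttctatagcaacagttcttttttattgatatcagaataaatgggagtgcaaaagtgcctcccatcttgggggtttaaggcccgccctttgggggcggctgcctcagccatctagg
Mt1: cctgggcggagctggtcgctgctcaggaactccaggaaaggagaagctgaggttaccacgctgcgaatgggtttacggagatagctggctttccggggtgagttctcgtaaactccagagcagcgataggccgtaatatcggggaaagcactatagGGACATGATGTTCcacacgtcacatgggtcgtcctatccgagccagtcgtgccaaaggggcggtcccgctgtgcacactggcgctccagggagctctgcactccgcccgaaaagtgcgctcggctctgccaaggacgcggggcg
Map3k6: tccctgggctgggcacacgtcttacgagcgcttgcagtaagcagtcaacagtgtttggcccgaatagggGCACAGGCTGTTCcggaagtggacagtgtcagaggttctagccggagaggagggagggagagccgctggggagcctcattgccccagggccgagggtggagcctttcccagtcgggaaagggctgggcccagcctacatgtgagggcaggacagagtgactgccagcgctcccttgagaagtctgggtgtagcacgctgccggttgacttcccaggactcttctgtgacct
Serpina3c: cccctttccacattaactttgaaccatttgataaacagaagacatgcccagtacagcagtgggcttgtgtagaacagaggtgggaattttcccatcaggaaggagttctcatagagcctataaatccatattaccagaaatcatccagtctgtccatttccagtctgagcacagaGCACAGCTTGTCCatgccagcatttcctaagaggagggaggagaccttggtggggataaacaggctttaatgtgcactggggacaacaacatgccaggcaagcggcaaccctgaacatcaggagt
Sgk1: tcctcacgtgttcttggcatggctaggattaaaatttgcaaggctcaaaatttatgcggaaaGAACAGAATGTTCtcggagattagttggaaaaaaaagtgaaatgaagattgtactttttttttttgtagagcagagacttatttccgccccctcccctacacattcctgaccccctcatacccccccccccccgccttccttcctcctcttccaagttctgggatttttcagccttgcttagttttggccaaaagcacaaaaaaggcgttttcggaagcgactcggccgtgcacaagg

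Of these, Fam107a, an actin-associated gene known to respond to stress hormones, was at 0, 0.10 and 0.16 TPM in the Veh and 73.5, 19.6 and 82.2 TPM in the CORT libraries (log2 fold change 5.54, SE 0.50, limma adjusted p = 0.0028, and 5.48 with scaling, limma adjusted p = 0.00571). Map3k6, a stress-activated kinase, was at 0.49, 0.61 and 1.31 TPM in the Veh and 6.11, 5.35 and 4.98 TPM in the CORT libraries (log2 fold change 1.87, limma adjusted p = 0.00597). Serpina3c, a member of a cluster of similar protease inhibitors between which reads can be split, was at 0.29, 0.19 and 0.36 TPM in the Veh and 2.68, 4.42 and 2.77 TPM in the CORT libraries (log2 fold change 1.72, limma adjusted p = 0.00796). In all 3 the groups did not overlap, but each passed the limit of 1 TPM through the CORT group only, which fixes its direction.

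Many genes of cholesterol synthesis fell. Of 28 genes of the pathway and its control, 12 were lower and 1 higher (46.4% called), 14 and 1 with scaling, and the median log2 fold change was -0.84. Msmo1 (ENSMUSG00000031604), a sterol demethylation enzyme, was at 54.7, 59.7 and 67.3 TPM in the Veh and 15.7, 18.6 and 17.2 TPM in the CORT libraries, with no overlap (log2 fold change -1.76, SE 0.13, limma adjusted p = 0.00178, and -1.85 with scaling, limma adjusted p = 0.00296). Hmgcs1, which makes HMG-CoA, was at 48.3, 41.6 and 52.9 TPM in the Veh and 16.2, 24.7 and 15.4 TPM in the CORT libraries (log2 fold change -1.32, limma adjusted p = 0.0148). Along the mevalonate steps, Mvk fell by 1.39, Mvd by 1.52 and Idi1 by 1.79 (limma adjusted p = 0.0223, 0.0244 and 0.0171). Fdft1 and Sqle, which make and oxidise squalene, fell by 1.2 and 1.67 (limma adjusted p = 0.0211 and 0.0178), and Lss, which closes the sterol rings, fell by 1.03 (limma adjusted p = 0.0297). The later enzymes Cyp51 and Sc5d fell by 1.09 and 1.19 (limma adjusted p = 0.0394 and 0.0286).

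Stard4, a sterol carrier, fell by 1.77 (limma adjusted p = 0.00597). The single gene that moved the other way was Insig2 (ENSMUSG00000003721), which holds SREBP proteins in the endoplasmic reticulum. It was at 64.4, 46.9 and 51.8 TPM in the Veh and 658, 638 and 345 TPM in the CORT libraries, with CORT3 the lowest treated library and no overlap (log2 fold change 3.26, SE 0.27, limma adjusted p = 0.00204, and 3.17 with scaling, limma adjusted p = 0.00571). Its relative Insig1 had a log2 fold change of -1.49, limma adjusted p = 0.072, and was called lower only with scaling (-1.58, limma adjusted p = 0.0408). Srebf2, the cholesterol branch of the SREBP factors, was at 15.4, 19.6 and 16.1 TPM in the Veh and 24.3, 20.5 and 19.8 TPM in the CORT libraries, which differed by 0.32 and was not called. In fits that each left out 1 library, the number of lower genes was 3 without Veh1, 9 without Veh2, 2 without Veh3, 3 without CORT1, 9 without CORT2 and 7 without CORT3, and the median of the list stayed between -0.94 and -0.78.

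The sterol response element TCACNCCAC, searched on both strands of the same windows, was in 1 of the 8 lower cholesterol genes that had a window, and in 135 of all 8803 genes (1.53%). Over all calls it was in 10 of 436 higher genes (2.29%) and 2 of 162 lower genes (1.23%). The cholesterol gene was Hmgcs1, whose window at chr13:119690101-119690400, plus strand, is shown with the element in capitals, beginning 137 bases before the start.
Hmgcs1: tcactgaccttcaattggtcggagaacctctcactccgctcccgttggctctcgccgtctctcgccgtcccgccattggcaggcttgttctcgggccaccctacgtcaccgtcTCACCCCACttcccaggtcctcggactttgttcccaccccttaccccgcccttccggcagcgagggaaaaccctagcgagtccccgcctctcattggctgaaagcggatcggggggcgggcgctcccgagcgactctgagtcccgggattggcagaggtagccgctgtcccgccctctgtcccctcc

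The heat shock element was in 3 of 436 higher genes (0.688%), 1 of 162 lower genes (0.617%) and 49 of all 8803 (0.557%), and in 0 of the 3 heat shock genes called higher. The D-box, the element that Dbp binds, was also in 3 of 436 higher and 1 of 162 lower genes, against 68 of all 8803 (0.772%), and in 0 of the 9 clock genes called.

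In fatty acid synthesis 6 of 24 genes were called lower (25%) and 0 higher, with 1 higher, Pnpla3, under scaling. Srebf1, the factor that drives this branch, was at 90.9, 135 and 63.3 TPM in the Veh and 31.5, 36.4 and 17.8 TPM in the CORT libraries (log2 fold change -1.71, limma adjusted p = 0.0339). Fasn, fatty acid synthase, was at 206, 254 and 336 TPM in the Veh and 94.6, 116 and 78.4 TPM in the CORT libraries (log2 fold change -1.44, SE 0.22, limma adjusted p = 0.015, and -1.54 with scaling, limma adjusted p = 0.0151). Acly, which supplies acetyl-CoA, fell by 1.2 (limma adjusted p = 0.0267), and Acaca, which makes malonyl-CoA, was called lower too. Scap, the escort of SREBP, fell by 0.89 and Acsl3, an acyl-CoA synthetase, by 1.28 (limma adjusted p = 0.0277 and 0.0436). Not all lipogenic genes were lower. Thrsp, a promoter of lipogenesis, was at 302, 152 and 774 TPM in the Veh and 1227, 963 and 1136 TPM in the CORT libraries, all higher in CORT, but was not called (1.74, limma adjusted p = 0.0954), and the desaturase Scd1 overlapped (log2 fold change 0.89, limma adjusted p = 0.334). Leaving out each library, the number of lower genes was 4 without Veh1, 2 without Veh2, 3 without Veh3, 0 without CORT1, 2 without CORT2 and 1 without CORT3.

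Several genes of triglyceride storage and lipid droplets rose. Of 32 tested, 10 were called higher (31.2%) and 0 lower, 8 and 0 with scaling, with a median log2 fold change of 0.95. Through 1 group only 4 of the 32 passed the limit of 1 TPM, 1 of them called. Plin5 and Plin4, proteins that coat lipid droplets, were both called higher. Plin5 (ENSMUSG00000011305) was at 12.2, 17.2 and 20 TPM in the Veh and 203, 125 and 146 TPM in the CORT libraries (log2 fold change 3.19, SE 0.24, limma adjusted p = 0.00178, and 3.09 with scaling, limma adjusted p = 0.00316), and Plin4 was at 0.23, 0.72 and 0.46 TPM in the Veh and 10.9, 12.1 and 8.6 TPM in the CORT libraries (log2 fold change 2.97, limma adjusted p = 0.00143). Cd36, which takes up fatty acids, was at 3.56, 8.4 and 7.37 TPM in the Veh and 42.6, 82.4 and 43.9 TPM in the CORT libraries (log2 fold change 2.94, limma adjusted p = 0.00693). On the side of lipolysis, Mgll, monoacylglycerol lipase, rose by 2.05, Pnpla2, the first lipase of triglyceride breakdown, by 1.06, and G0s2, the inhibitor of that lipase, by 2.03 (limma adjusted p = 0.00492, 0.0488 and 0.0261). Fitm2 and Plin3 rose by 1.63 and 1.27 (limma adjusted p = 0.0225 and 0.0468). Cidec, a droplet fusion protein, was at 3.82, 3.66 and 3.59 TPM in the Veh and 95.3, 113 and 9.41 TPM in the CORT libraries, with CORT3 the lowest treated library, and was not called (log2 fold change 3.37, limma adjusted p = 0.0607). Fabp1, a fatty acid carrier and the most abundant gene of the list, was at 6958, 8922 and 8526 TPM in the Veh and 10991, 8272 and 3212 TPM in the CORT libraries, which overlapped (log2 fold change -0.29, limma adjusted p = 0.709). Dgat1 and Dgat2, which make triglyceride, had log2 fold changes of 0.20 and 0.15 and were not called.

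With 1 library left out, the number of storage and droplet genes called higher was 4 without Veh1, 7 without Veh2, 5 without Veh3, 4 without CORT1, 4 without CORT2 and 13 without CORT3, and the median of the list stayed between 0.76 and 1.07.

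**Figure D2:**
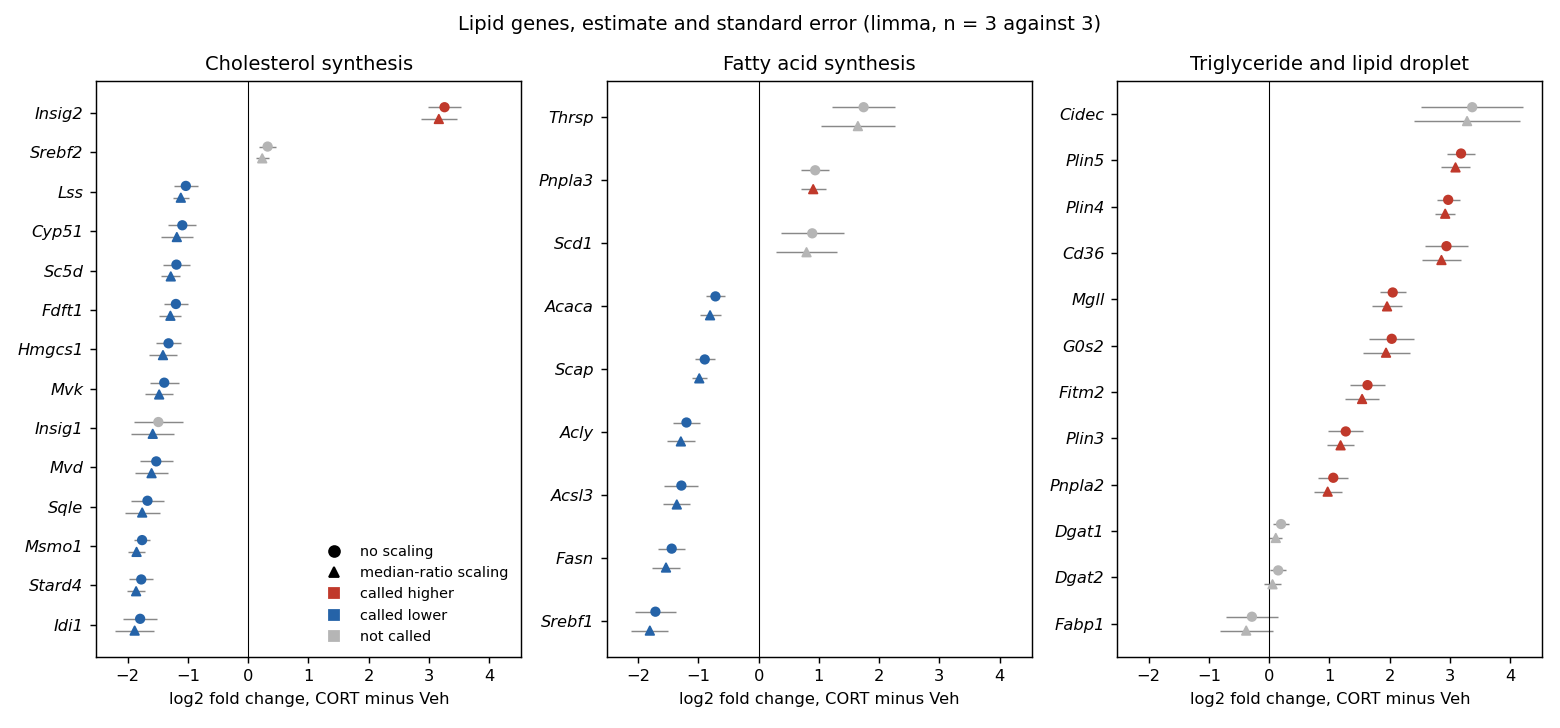
Log2 fold change, CORT minus Veh, with its standard error for the genes named in the text from the lists of cholesterol synthesis (14 of 28), fatty acid synthesis (9 of 24) and triglyceride storage (12 of 32), as circles without and triangles with median-ratio scaling. The named cholesterol genes lie left of 0 apart from Insig2, beyond 3 on the right, and Srebf2, and 11 of the 12 plotted storage genes lie right of 0, all but Fabp1.

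Fatty acid oxidation and PPARα targets had medians above the Veh libraries in CORT1 and CORT2, but not in CORT3. Of 27 oxidation genes 5 were called higher (18.5%), 4 with scaling, and of 32 PPARα targets 7 were called higher (21.9%), 8 with scaling, with 0 lower in either. Slc22a5, the carnitine transporter, was at 4.56, 6.76 and 5.56 TPM in the Veh and 36.1, 32.1 and 18.4 TPM in the CORT libraries (log2 fold change 2.13, limma adjusted p = 0.00723). Crat, carnitine acetyltransferase, rose by 2.63, Eci2 by 1.37 and Cpt2, the inner carnitine enzyme of mitochondria, by 0.95 (limma adjusted p = 0.0196, 0.0141 and 0.0237). Cpt1a, the outer enzyme, was at 63, 124 and 87 TPM in the Veh and 169, 204 and 105 TPM in the CORT libraries and was not called. Among the PPARα targets, Cyp4a14 (ENSMUSG00000028715), a fatty acid hydroxylase, was at 0.80, 8.15 and 1.86 TPM in the Veh and 1284, 815 and 123 TPM in the CORT libraries (log2 fold change 7.13, SE 0.94, limma adjusted p = 0.00922, and 7.08 with scaling, limma adjusted p = 0.0122), and its relative Cyp4a10 was at 14.7, 10.4 and 16.3 TPM in the Veh and 806, 550.4 and 133 TPM in the CORT libraries. Pex11a, which divides peroxisomes, rose by 2.53 and Acot1, a thioesterase, by 3.3 (limma adjusted p = 0.00597 and 0.00939). In each of these the lowest CORT library was CORT3. Vnn1, a PPARα target chosen here after its values were seen, was at 6.18, 5.38 and 5.54 TPM in the Veh and 46, 44.6 and 4.74 TPM in the CORT libraries, where CORT3 lay below all 3 Veh libraries.

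Without CORT3 the PPARα targets called higher numbered 16, and the oxidation genes 12. Leaving out each library gave 4 without Veh1, 8 without Veh2, 4 without Veh3, 4 without CORT1, 4 without CORT2 and 16 without CORT3 for PPARα targets, and 1 without Veh1, 5 without Veh2, 2 without Veh3, 2 without CORT1, 2 without CORT2 and 12 without CORT3 for oxidation. The difference between CORT3 and the other CORT libraries was not tested.

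Genes of glucose output rose in part. Of 16 gluconeogenic genes 3 were called higher (18.8%) and 0 lower, 4 and 0 with scaling. Pcx, pyruvate carboxylase, the entry step, was at 111, 133 and 129.7 TPM in the Veh and 346, 374 and 272 TPM in the CORT libraries (log2 fold change 1.39, SE 0.16, limma adjusted p = 0.00609, and 1.3 with scaling, limma adjusted p = 0.00789). Creb3l3 and Foxo1, transcription factors of the fasted liver, rose by 0.96 and 0.95 (limma adjusted p = 0.0192 and 0.0357). Pck1 was at 804, 545 and 1448 TPM in the Veh and 1362, 772 and 1072 TPM in the CORT libraries and G6pc was at 80.3, 31.6 and 121 TPM in the Veh and 138, 138 and 81.3 TPM in the CORT libraries, so both overlapped and neither was called (log2 fold change 0.28, limma adjusted p = 0.674, and 0.77, limma adjusted p = 0.357). On the side of glucose use, Pfkfb2, which sets the level of a glycolytic activator, rose by 1.02 (limma adjusted p = 0.0273). Of 15 glycogen genes 2 were called higher and 0 lower, 2 and 1 with scaling. Ppp1r3b and Ppp1r3c, which bring a phosphatase to glycogen, rose by 1.68 and 3.28 (limma adjusted p = 0.012 and 0.0289).

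In amino acid breakdown 5 of 46 genes were called higher and 2 lower (15.2%), 5 and 4 with scaling, around a median of 0.064. Those that rose act on lysine, tryptophan, glycine, tyrosine and methionine. Aass (ENSMUSG00000029695), the first enzyme of lysine breakdown, was at 66.1, 84.1 and 68.9 TPM in the Veh and 229, 228 and 221 TPM in the CORT libraries (log2 fold change 1.62, SE 0.13, limma adjusted p = 0.00202, and 1.53 with scaling, limma adjusted p = 0.00209). Tdo2, the first enzyme of tryptophan breakdown, was at 567, 804 and 713 TPM in the Veh and 2312, 1899 and 2071 TPM in the CORT libraries (log2 fold change 1.6, limma adjusted p = 0.00528). Gldc, Hpd and Mat1a rose by 1.01, 0.85 and 0.83 (limma adjusted p = 0.0113, 0.0126 and 0.0495). Amdhd1, of histidine breakdown, fell by 1.16 and Agxt, which detoxifies glyoxylate, by 1.28 (limma adjusted p = 0.0129 and 0.0259). Of 8 urea cycle genes only the aspartate carrier Slc25a13 was called higher (log2 fold change 0.77, limma adjusted p = 0.0314), and Otc was called lower with scaling (-0.62, limma adjusted p = 0.0442).

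**Figure D3:**
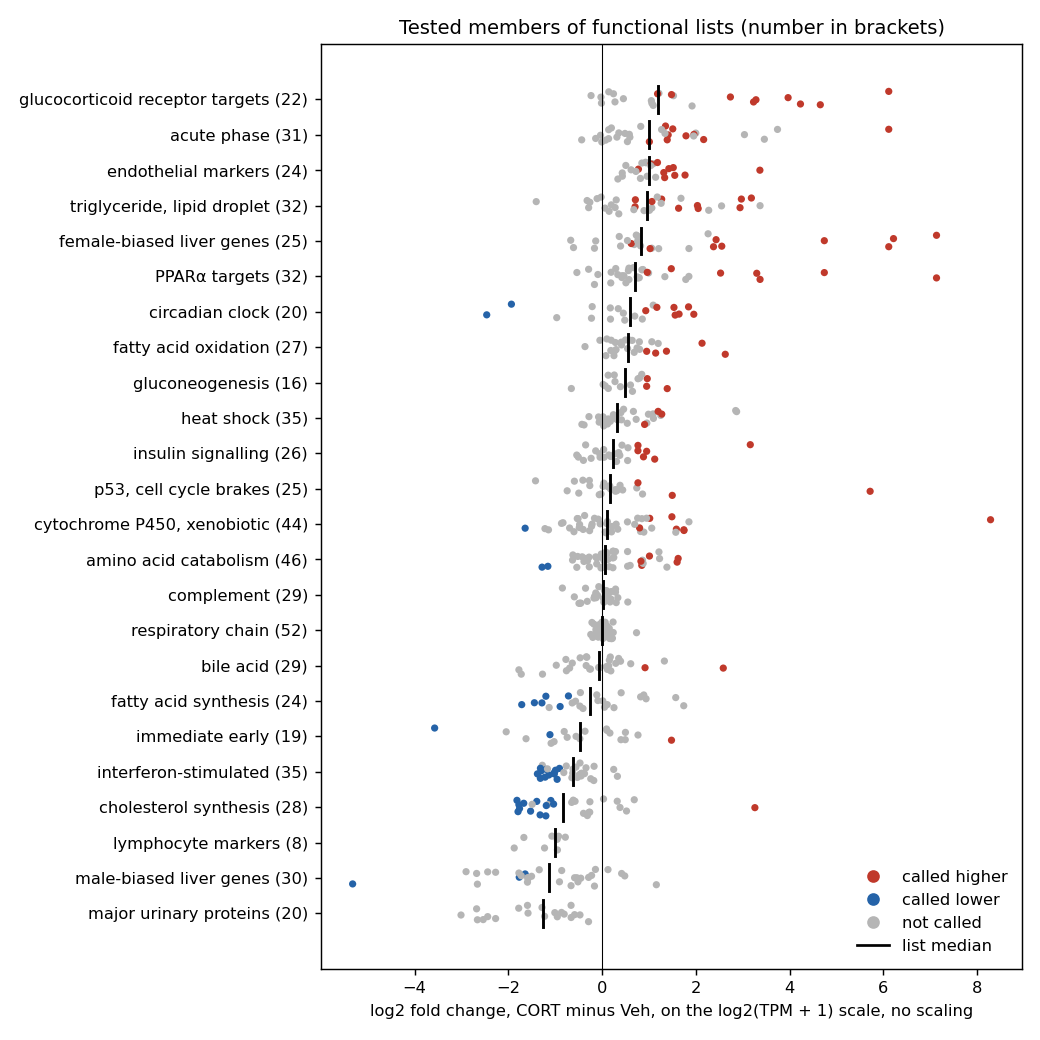
Log2 fold change, CORT minus Veh, without scaling, of every tested member of 24 functional lists, with called genes in red (higher) or blue (lower), uncalled genes in grey and the list median as a black bar. Medians run from 1.2 for glucocorticoid receptor targets to -1.25 for major urinary proteins.

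Enzymes of foreign compound metabolism held the largest single change. Cyp2b10 (ENSMUSG00000030483), a drug-inducible cytochrome P450, was at 1.56, 0.60 and 6.51 TPM in the Veh and 1052, 778 and 1141 TPM in the CORT libraries (log2 fold change 8.29, SE 0.52, limma adjusted p = 0.00143, and 8.18 with scaling, limma adjusted p = 0.00284). Of 44 P450 genes and their partners 7 were called higher and 1 lower (18.2%). Por, the electron donor of microsomal P450 enzymes, was at 127, 221 and 196 TPM in the Veh and 599, 561 and 628 TPM in the CORT libraries (log2 fold change 1.75, limma adjusted p = 0.00702), and Cyp3a11, a main drug hydroxylase, was at 648, 883 and 794 TPM in the Veh and 2874, 2033 and 2111 TPM in the CORT libraries (log2 fold change 1.59, limma adjusted p = 0.00693). Its relatives Cyp3a59, Cyp3a13 and Cyp3a25 rose by 1.49, 1.02 and 0.80 (limma adjusted p = 0.0148, 0.0306 and 0.0232), and Cyp2c38 rose by 1.75 (limma adjusted p = 0.0316), although reads can be split between such near copies. Nr1i3, the receptor CAR that drives Cyp2b10, was at 66.8, 33.5 and 71.8 TPM in the Veh and 71.7, 91.8 and 29.1 TPM in the CORT libraries, which overlapped. By symbol, 12 of 64 Cyp genes were higher and 1 lower (20.3%), 13 and 2 with scaling. With 1 library left out, higher P450 genes of the list numbered 4 without Veh1, 6 without Veh2, 5 without Veh3, 4 without CORT1, 4 without CORT2 and 7 without CORT3.

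Among conjugating enzymes 5 of 51 were called higher and 1 lower (11.8%), 4 and 1 with scaling. Sult1e1, which sulfates oestrogens, was at 0.75, 0.33 and 0.12 TPM in the Veh and 44.5, 167 and 139.5 TPM in the CORT libraries (log2 fold change 6.22, SE 0.48, limma adjusted p = 0.00187, and 6.15 with scaling, limma adjusted p = 0.00323). It passed the limit of 1 TPM through the CORT group only, which fixes its direction. Sult1d1 and Sult2a7 rose by 2.4 and 2.55 (limma adjusted p = 0.00693 and 0.00837), and Ugt2b35 fell by 1.09 (limma adjusted p = 0.00468). In bile acid metabolism 2 of 29 genes were called higher and 0 lower (6.90%), and with scaling 2 higher and 3 lower (17.2%, against 8.65% of all genes). The higher genes were Cyp39a1, at 3.93, 11.6 and 6.1 TPM in the Veh and 46.3, 38.9 and 49.4 TPM in the CORT libraries (log2 fold change 2.59, limma adjusted p = 0.00774), and Cyp27a1 (log2 fold change 0.92, limma adjusted p = 0.0182), both sterol hydroxylases. Cyp7a1, the rate-limiting enzyme of bile acid synthesis, was at 26.7, 31.8 and 19.1 TPM in the Veh and 6.94, 8.8 and 15.7 TPM in the CORT libraries, with every CORT value the lower, and was called only with scaling (-1.36, limma adjusted p = 0.0376).

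Some genes whose level differs between the sexes changed. Of 30 tested genes known to be higher in male mouse liver 3 were called lower and 0 higher (10%), with a median of -1.12, and of 25 known to be higher in females 9 were called higher and 0 lower (36%), 8 and 1 with scaling, with a median of 0.82. Relative to the Veh mean on the log2 scale, the male-biased median was 0.33, -0.57 and 0.17 in the Veh libraries. In the CORT libraries it was -0.33, -1.71 and -1.255, so Veh2 lay below CORT1. Without CORT2 the median log2 fold change of the male-biased list was -0.64. Of the 25 female-biased genes, 7 passed the limit of 1 TPM through 1 group only, which fixes their direction, and 1 of the 9 called was among them. The female-biased list named 40 genes, of which 39 were in the liver table and only these 25 reached the limit. Among those under it, Cyp3a16 and Cyp3a41b were listed at 0 in all 6 libraries. Cyp3a41a was at 0.07, 0.08 and 0.06 TPM in the Veh and 0.50, 0.73 and 0.76 TPM in the CORT libraries. Hsd3b5 (ENSMUSG00000038092), a steroid dehydrogenase of male liver, was at 181, 48.6 and 135 TPM in the Veh and 5.41, 0.36 and 1.22 TPM in the CORT libraries (log2 fold change -5.32, SE 0.67, limma adjusted p = 0.00774, and -5.39 with scaling, limma adjusted p = 0.0124). The CORT values were all below the lowest Veh value, that of Veh2. Nudt7, a coenzyme A hydrolase, fell by 1.77 and Cyp2u1 by 1.64 (limma adjusted p = 0.00844 and 0.0148). Of the female-biased genes, Sult1e1, Cyp4a14, Cyp4a10 and Lcn2 also belong to other lists described here. Fmo2 and Fmo1, flavin monooxygenases, rose by 2.38 and 1.03 (limma adjusted p = 0.00452 and 0.0102), and Cyp17a1, of steroid synthesis, was at 2.96, 15.2 and 3.46 TPM in the Veh and 25.3, 49.4 and 32.9 TPM in the CORT libraries (log2 fold change 2.43, limma adjusted p = 0.0443). Growth hormone axis genes gave 1 higher and 1 lower call of 21, 1 and 2 with scaling, with Igfbp2, an IGF-binding protein, at 441, 419 and 379 TPM in the Veh and 155, 56.9 and 79.5 TPM in the CORT libraries (log2 fold change -2.2, limma adjusted p = 0.0148) and Igf1, a main target of growth hormone, not called (log2 fold change 0.014, limma adjusted p = 0.97).

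The major urinary proteins are near-identical copies, and their values can trade reads. Summed over all 22 listed, they made up 175000, 39770 and 125600 TPM in the Veh and 75480, 30020 and 29200 TPM in the CORT libraries, so Veh2 lay below CORT1. By limma 0 of the 20 tested were called, 4 were lower at an unadjusted p under 0.05 and the same fold limit, their median was -1.25, and without Veh2 3 were called lower. Without Veh2, 5 male-biased genes were called lower, and the count was 2 without Veh1.

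Part of the acute phase response rose. Of 31 genes 9 were called higher and 0 lower (29.0%), 8 with scaling, with a median of 1.01. Lcn2 (ENSMUSG00000026822), which binds bacterial iron carriers, was at 111, 14.3 and 16.1 TPM in the Veh and 1119, 3206 and 2728 TPM in the CORT libraries (log2 fold change 6.12, SE 0.79, limma adjusted p = 0.00881, and 6.02 with scaling, limma adjusted p = 0.0139). Hp, haptoglobin, was at 5522, 3897 and 2985 TPM in the Veh and 7820.2, 11062 and 12414 TPM in the CORT libraries (log2 fold change 1.35, limma adjusted p = 0.0342). Serpina3m and Serpina3k, protease inhibitors of a family of close copies, rose by 2.17 and 1.01 (limma adjusted p = 0.00187 and 0.0102). Lbp, which binds bacterial lipopolysaccharide, rose by 1.39, and the cytokine receptors Il6ra and Il1r1 by 1.41 and 1.79 (limma adjusted p = 0.0211, 0.0232 and 0.0195). The serum amyloids did not separate the groups. Saa1 was at 3519, 365 and 172 TPM in the Veh and 2785, 9613 and 19964 TPM in the CORT libraries, and Saa2 at 2077, 206 and 65.1 TPM in the Veh and 321, 8638 and 13670.4 TPM in the CORT libraries, with Veh1 above a CORT library in both. Of 29 complement genes 0 were called by limma, with or without scaling, and 1 was lower at an unadjusted p under 0.05. With 1 library left out, higher acute phase genes numbered 9 without Veh1, 5 without Veh2, 3 without Veh3, 4 without CORT1, 6 without CORT2 and 3 without CORT3.

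Markers of neutrophils, blood cells of acute inflammation, were not even across the libraries. Of 14 markers 5 reached 1 TPM, and 1 was called, Lcn2, which is also on the acute phase list and made up most of their sum in the CORT libraries. That sum, over all 14 markers, was 22.98 to 118.6 TPM in the Veh and 1120.0 to 3240.0 TPM in the CORT libraries. S100a8, a calcium-binding protein of neutrophils, was at 1.8, 5.0 and 1.82 TPM in the Veh and 0.36, 10.2 and 10.6 TPM in the CORT libraries, which overlapped. Ly6g, which defines mouse neutrophils, was listed at 0 in 4 libraries and at 0.49 TPM in CORT2 and 0.13 TPM in CORT3. Relative to the Veh mean on the log2 scale, the median of the 5 markers was -0.59 in CORT1, 1.19 in CORT2 and 1.42 in CORT3, and -0.37, 0.73 and -0.38 in the Veh libraries. The median of the acute phase genes was 0.079, 0.86 and 1.4 in the same CORT libraries, and that of 21 Kupffer cell and macrophage markers was -0.36, 0.33 and 0.89. In the Veh libraries the acute phase median was 0.29, -0.052 and -0.26, so Veh1 lay above CORT1. The Veh values for the macrophage markers were -0.15, 0.18 and 0.022. The part of these cells in the acute phase result was not tested.

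Many genes induced by interferon fell. Of 35 tested, 12 were called lower and 0 higher (34.3%), 16 lower with scaling. Without scaling, 23 of the 35 had every CORT value below every Veh value, against 1356 of all 11699 genes. Of the 35, 9 passed the limit of 1 TPM through 1 group only, which fixes their direction, and they held 3 of the 12 calls. Rtp4 (ENSMUSG00000033355), an interferon-induced chaperone, was at 10.3, 11 and 8.0 TPM in the Veh and 3.69, 2.75 and 2.97 TPM in the CORT libraries (log2 fold change -1.38, SE 0.17, limma adjusted p = 0.00693, and -1.46 with scaling, limma adjusted p = 0.00603). Ifit3 and Ifit1, which act on viral RNA, fell by 1.32 and 1.02 (limma adjusted p = 0.010 and 0.0219), and Isg15, a ubiquitin-like modifier, by 1.19 (limma adjusted p = 0.0388). Irf7, the transcription factor that amplifies the response, was at 17.1, 20.7 and 20.2 TPM in the Veh and 8.19, 11.1 and 10.3 TPM in the CORT libraries (log2 fold change -0.91, limma adjusted p = 0.0199). The immunity-related GTPases Irgm2, Igtp and Iigp1 fell by 1.31, 1.02 and 0.96 (limma adjusted p = 0.0302, 0.0406 and 0.0327). With 1 library left out, lower interferon genes numbered 3 without Veh1, 7 without Veh2, 4 without Veh3, 2 without CORT1, 6 without CORT2 and 8 without CORT3, and the median of the list stayed between -0.79 and -0.55.

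Few markers of lymphocytes could be tested. The TPM summed over all 28 markers was between 29.1 and 88.9 in the Veh and between 5.86 and 25 in the CORT libraries. Only 8 of the 28 reached 1 TPM, 6 of them through the Veh group alone, which fixes their direction. By limma 0 of the 8 were called without scaling, and 7 were lower at an unadjusted p under 0.05. With scaling 4, Ccl5, Cd79b, Iglc2 and Ighd, were called lower, all from those 6. The other 2 markers, Igkc and Ighm, immunoglobulin chains, were not called, with Igkc at 14.3, 49.5 and 18.2 TPM in the Veh and 2.11, 5.66 and 13.6 TPM in the CORT libraries. Ighd, of naive B cells, was listed with Veh values of 0.51, 1.77 and 1.21 TPM and CORT values of 0 throughout, and Cd79b, part of the B cell receptor, was at 1.02, 2.9 and 0.95 TPM in the Veh and 0.09, 0 and 0.10 TPM in the CORT libraries. Among 23 genes of antigen presentation, Psmb9, an immunoproteasome subunit, was called lower (log2 fold change -0.84, limma adjusted p = 0.033), and with scaling 3 were. Cd74, of class II presentation, was at 53.6, 134 and 90 TPM in the Veh and 26.1, 31 and 161 TPM in the CORT libraries, so CORT3 lay above all others. In such bulk samples, fewer cells of a type and less RNA per cell cannot be told apart, and the part of lymphocytes in the interferon result was not tested.

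Many endothelial markers rose. Of 24 tested, 10 were called higher and 0 lower (41.7%), 15 with scaling, and the median log2 fold change was 1.0. Without scaling, 19 of the 24 had every CORT value above every Veh value, against 2411 of all 11699 genes. The limit of 1 TPM was passed through 1 group only by 4 of the 24, 1 of them called. Lyve1, a hyaluronan receptor of liver sinusoids, was at 0.37, 5.57 and 1.28 TPM in the Veh and 17.7, 24.6 and 46.1 TPM in the CORT libraries (log2 fold change 3.37, SE 0.59, limma adjusted p = 0.0229, and 3.32 with scaling, limma adjusted p = 0.0226). Stab2 (ENSMUSG00000035459), a scavenger receptor of the same cells, was at 4.21, 6.61 and 5.5 TPM in the Veh and 11.4, 12.5 and 12.4 TPM in the CORT libraries (log2 fold change 1.04, limma adjusted p = 0.0164). Pecam1, an adhesion molecule of all endothelium, was at 1.35, 4.39 and 1.99 TPM in the Veh and 7.95, 7.35 and 10.9 TPM in the CORT libraries (log2 fold change 1.52, limma adjusted p = 0.037). Oit3 and Gpr182 rose by 1.77 and 1.55, and the growth factor receptors Flt1 and Flt4 by 1.42 and 1.34 (limma adjusted p = 0.0324, 0.0398, 0.0258 and 0.0353). The summed TPM of the list ran from 70.2 to 159 in the Veh libraries and from 243 to 289 with CORT, with Veh2 the highest of the Veh libraries. Leaving out each library gave 1 without Veh1, 16 without Veh2, 0 without Veh3, 1 without CORT1, 1 without CORT2 and 2 without CORT3 called higher, while the median of the list stayed between 0.86 and 1.2.

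Other cell types gave few calls. Of 21 Kupffer cell and macrophage markers, Cd163, a haemoglobin scavenger receptor known to be induced by glucocorticoids, was at 2.19, 0.80 and 2.8 TPM in the Veh and 8.66, 13.8 and 20.9 TPM in the CORT libraries (log2 fold change 2.39, limma adjusted p = 0.0159), and Aif1 fell by 1.09 (limma adjusted p = 0.0164). Clec4f, specific to Kupffer cells, was at 41.8, 39.9 and 56.2 TPM in the Veh and 30, 38.5 and 77.5 TPM in the CORT libraries, which overlapped. Of 26 stellate cell and fibroblast markers 0 were called by limma, while 4 were higher and 1 lower at an unadjusted p under 0.05, 1, Col3a1, was lower with scaling, and 5 were higher without Veh2. Of 8 cholangiocyte markers the keratins Krt18 and Krt8, which hepatocytes also make, fell by 1.39 and 0.81 (limma adjusted p = 0.0351 and 0.0393), but 1 was called without CORT2 and 0 without any other single library. Of 15 hepatocyte markers 3 were called higher, among them Cyp3a11 and Hnf4a, a master transcription factor of the hepatocyte (log2 fold change 0.86, limma adjusted p = 0.0211).

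**Figure D4:**
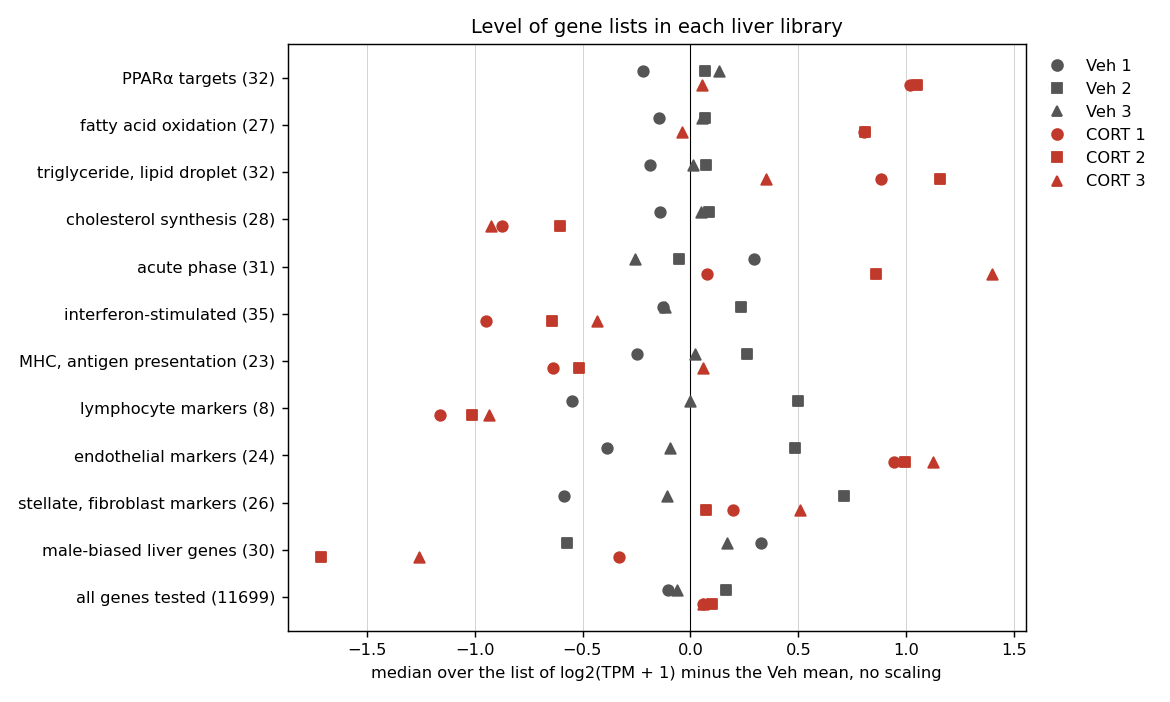
For 11 gene lists and for all tested genes, the median over the list of log2(TPM + 1) minus the Veh mean of each gene is plotted for each library, Veh in grey and CORT in red, with a marker shape for each replicate number. Veh2 lies highest of the Veh libraries in the endothelial, lymphocyte and stellate lists, and CORT3 lies within the Veh range for PPARα targets and fatty acid oxidation.

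Clock genes changed in both directions. Of 20 clock genes 7 were called higher and 2 lower (45%), 4 and 2 with scaling. Through the CORT group only 1 of the 20, Arntl, passed the limit of 1 TPM, which fixes its direction. Arntl, the positive factor of the loop, was at 0.76, 0.47 and 0.96 TPM in the Veh and 5.54, 3.92 and 8.23 TPM in the CORT libraries (log2 fold change 1.96, SE 0.26, limma adjusted p = 0.0091, and 1.89 with scaling, limma adjusted p = 0.0133), and its partner Clock rose by 1.17 (limma adjusted p = 0.017). Dbp (ENSMUSG00000059824), an output factor that Arntl and Clock drive, was at 63, 121 and 88.5 TPM in the Veh and 17.5, 21.8 and 8.94 TPM in the CORT libraries (log2 fold change -2.46, limma adjusted p = 0.012). Nr1d1, which represses Arntl, was at 61, 43 and 35.5 TPM in the Veh and 10.2, 15.1 and 8.98 TPM in the CORT libraries (log2 fold change -1.93, limma adjusted p = 0.00907). Cry1 and Nfil3, which act against the positive loop and against Dbp, rose by 1.84 and 1.64 (limma adjusted p = 0.0113 and 0.0303). Usp2, Ciart and Hlf were called higher only without scaling. Per1, which glucocorticoids induce directly, was at 2.75, 3.34 and 8.8 TPM in the Veh and 11.5, 7.57 and 13.4 TPM in the CORT libraries, and was not called (log2 fold change 1.09, limma adjusted p = 0.131), nor was Per2 (log2 fold change 0.86, limma adjusted p = 0.0677). Leaving out each library gave 2 without Veh1, 4 without Veh2, 5 without Veh3, 2 without CORT1, 4 without CORT2 and 3 without CORT3 called higher, and Dbp and Nr1d1 were the 2 lower genes in the full fit.

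Among 19 immediate early genes, which answer growth signals within minutes, 2 were called lower and 1 higher, 3 and 1 with scaling. Egr1 was at 69.8, 28.7 and 17.9 TPM in the Veh and 0.62, 1.59 and 4.65 TPM in the CORT libraries (log2 fold change -3.57, limma adjusted p = 0.0185), and Ier2 was at 32.4, 31.9 and 29.7 TPM in the Veh and 11.2, 13.6 and 17.8 TPM in the CORT libraries (log2 fold change -1.11, limma adjusted p = 0.0164). Fos was at 8.34, 10.1 and 2.01 TPM in the Veh and 0.46, 0.38 and 4.32 TPM in the CORT libraries, where CORT3 lay within the Veh range. Junb was called lower only with scaling (-2.13, limma adjusted p = 0.0499). Without CORT3, 4 immediate early genes were called lower.

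The strongest change among cell cycle brakes was in 1 gene. Cdkn1a (ENSMUSG00000023067), the cell cycle inhibitor p21, was at 0.66, 2.0 and 1.65 TPM in the Veh and 147, 98.1 and 130.1 TPM in the CORT libraries (log2 fold change 5.72, SE 0.26, limma adjusted p = 0.000518, and 5.65 with scaling, limma adjusted p = 0.00118). Trp53inp1 and Sesn2, stress genes that p53 can drive, rose by 1.5 and 0.77 (limma adjusted p = 0.028 and 0.0224), and these were the 3 called of 25 (12%), 4 with scaling. Mdm2, a main p53 target, was at 7.98, 10.6 and 6.56 TPM in the Veh and 9.54, 8.78 and 12.7 TPM in the CORT libraries, which overlapped (log2 fold change 0.28, limma adjusted p = 0.434). Gadd45b, a stress-induced gene of another branch, was at 0.82, 0.96 and 1.87 TPM in the Veh and 110, 20.6 and 67.5 TPM in the CORT libraries (log2 fold change 4.66, limma adjusted p = 0.00693). Of 25 tested proliferation genes 1 was called, Rrm2, a subunit of ribonucleotide reductase, which rose by 1.54 (limma adjusted p = 0.0204). Ccnd1, cyclin D1, was at 9.9, 40 and 7.99 TPM in the Veh and 2.76, 2.77 and 4.1 TPM in the CORT libraries, with Veh2 far above the others (log2 fold change -1.93, limma adjusted p = 0.0794).

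Insulin signalling genes gave 6 higher and 0 lower calls of 26 (23.1%), 5 with scaling. Pik3r1, the regulatory subunit of PI3 kinase, was at 7.72, 7.44 and 7.49 TPM in the Veh and 17.5, 16.1 and 19.4 TPM in the CORT libraries (log2 fold change 1.12, SE 0.12, limma adjusted p = 0.00552, and 1.04 with scaling, limma adjusted p = 0.0104). Ptpn1, a phosphatase that acts on the insulin receptor, and Gsk3b, a kinase that insulin inhibits, rose by 0.77 and 0.88 (limma adjusted p = 0.0171 and 0.0262). Irs2 was at 3.57, 7.9 and 2.21 TPM in the Veh and 2.34, 3.27 and 3.42 TPM in the CORT libraries, which overlapped. Eif4ebp3, a translation repressor chosen here after its values were seen, was at 41.8, 49.2 and 125 TPM in the Veh and 360.2, 356 and 285 TPM in the CORT libraries (log2 fold change 2.37, limma adjusted p = 0.0184). With 1 library left out, insulin signalling genes called higher numbered 1 without Veh1, 5 without Veh2, 2 without Veh3, 1 without CORT1, 3 without CORT2 and 2 without CORT3.

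Of 28 tested liver hormones and secreted signals 6 were called higher and 1 lower (25%), 5 and 2 with scaling. Fgf21, a fasting hormone, was at 0.62, 3.49 and 0.34 TPM in the Veh and 26.7, 50.3 and 6.58 TPM in the CORT libraries (log2 fold change 3.37, limma adjusted p = 0.0434). Nrg4, a ligand of the receptor ErbB4, was at 7.88, 11.1 and 10.7 TPM in the Veh and 51.7, 45.6 and 64.2 TPM in the CORT libraries (log2 fold change 2.33, SE 0.18, limma adjusted p = 0.00197, and 2.24 with scaling, limma adjusted p = 0.00296), and Fgf1 rose by 1.8 (limma adjusted p = 0.00197). Inhbb, the activin B subunit, was at 0.06, 0.41 and 0.08 TPM in the Veh and 1.54, 1.25 and 2.48 TPM in the CORT libraries (log2 fold change 1.21, limma adjusted p = 0.0393). Inhbb passed the limit of 1 TPM through the CORT group only, which fixes its direction. Bmp2, a signal of endothelial cells to hepatocytes in iron control, rose by 1.18 (limma adjusted p = 0.027), and was counted among the endothelial markers as well. Enho, the precursor of adropin, was at 30.6, 39.6 and 19.5 TPM in the Veh and 1.26, 0.70 and 5.57 TPM in the CORT libraries (log2 fold change -3.34, limma adjusted p = 0.0148).

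**Figure D5:**
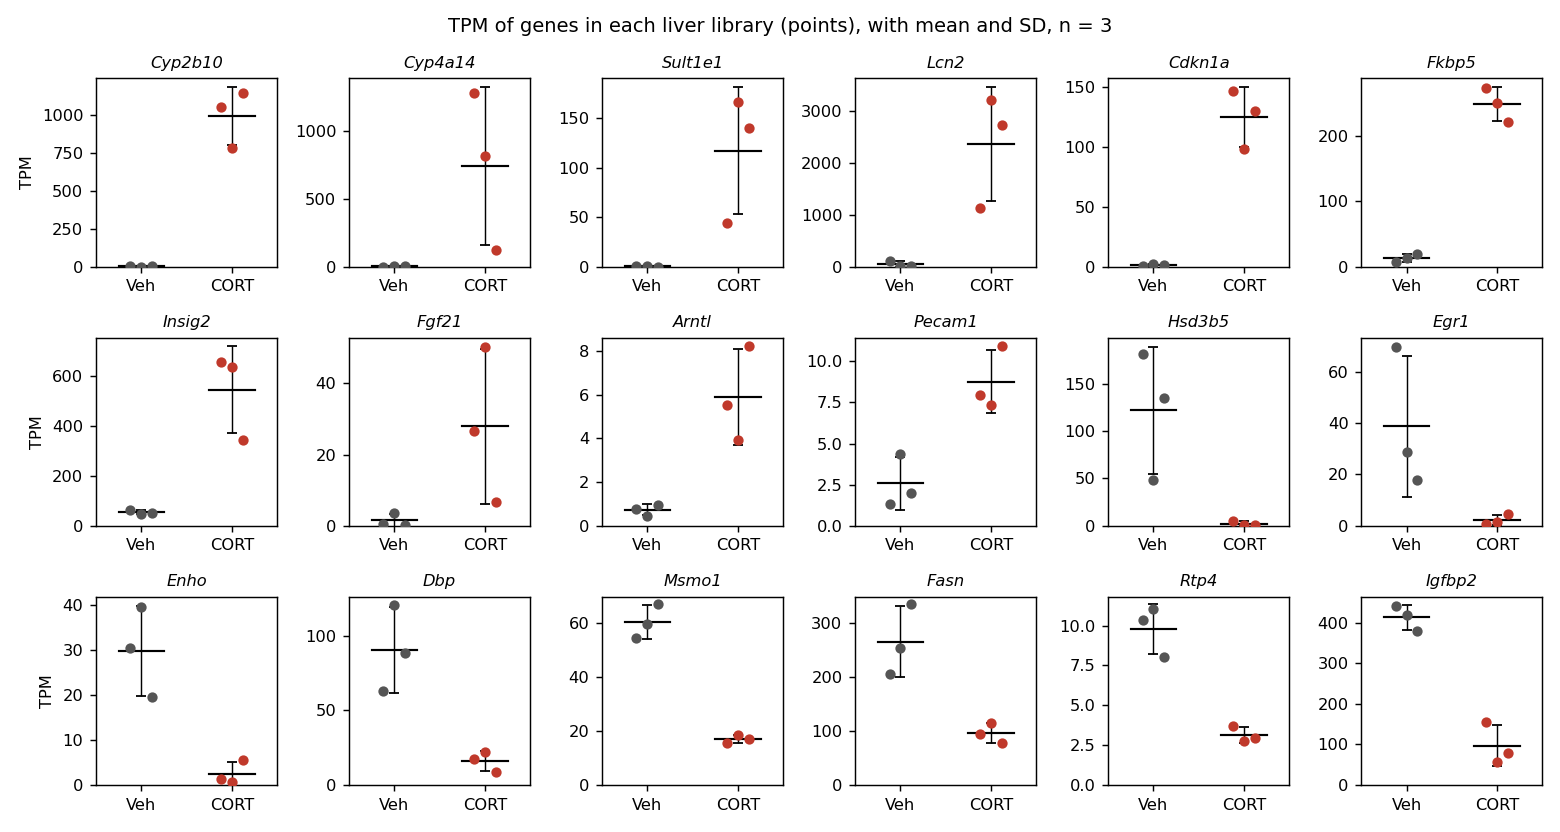
TPM of 18 genes in each library (points, Veh in grey and CORT in red), with the group mean as a horizontal line and the SD of 3 libraries as an error bar. In each of these genes, picked from the lists described, the CORT and Veh values do not overlap, from Cyp2b10 at 778 TPM or more in CORT to Hsd3b5 at 5.41 TPM or less.

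Few genes of protein folding stress were called, with 1 Ddit3 entry the largest change among them. Of 36 entries for genes of the unfolded protein and integrated stress responses 3 were called higher (8.33%), and with scaling 2 higher and 1 lower. The table lists Ddit3, the factor CHOP, under 2 identifiers, between which reads could be split. Ddit3 as ENSMUSG00000116429 was at 19, 18.6 and 22.5 TPM in the Veh and 130.4, 106 and 71 TPM in the CORT libraries, without overlap (log2 fold change 2.26, limma adjusted p = 0.00467). Ddit3 as ENSMUSG00000025408 was at 6.08, 9.67 and 3.8 TPM in the Veh and 5.92, 9.07 and 10.9 TPM in the CORT libraries, which overlapped (log2 fold change 0.40, limma adjusted p = 0.475). The other higher genes were Sesn2 and Herpud1, of which Herpud1 was not called with scaling (limma adjusted p = 0.0558). Atf4 overlapped (log2 fold change 0.058, limma adjusted p = 0.832). Of 35 heat shock genes 3 were called higher (8.57%), 2 with scaling. Hspa1a, the inducible HSP70, was at 0.78, 0.70 and 0.75 TPM in the Veh and 9.94, 1.28 and 82 TPM in the CORT libraries, with most of the rise in CORT3 (log2 fold change 2.87, limma adjusted p = 0.17), and its reads can be shared with the copy Hspa1b. Without scaling, both shares were close to the 6.92% of all genes.

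Genes of energy production and protein synthesis gave few calls. Of 52 respiratory chain genes 0 were called by limma, with or without scaling or at an unadjusted p under 0.05 with the fold limit, and their log2 fold changes ran from -0.24 to 0.74. Of 85 ribosomal protein genes 1 was called lower, 7 with scaling, and the median was -0.34, or -0.43 with scaling. Without scaling, 55 of the 85 had every CORT value below every Veh value, against 1356 of all 11699 genes. Rpl3, one of the 7, was at 253, 314 and 279 TPM in the Veh and 164, 239.8 and 185 TPM in the CORT libraries (with scaling -0.63, limma adjusted p = 0.0441). The 47 proteasome genes had a median of 0.14 with 1 lower call, 2 with scaling, and of 221 Zfp genes, mostly zinc finger factors, 6 were higher and 2 lower (3.62%), 5 and 3 with scaling. Of 36 mitochondrial carriers of the Slc25 family 4 were called higher and 0 lower (11.1%), 3 and 0 with scaling.

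Outside the lists, the largest folds belonged to genes of mixed function. Kcnmb2, a subunit of a calcium-activated potassium channel, was at 0, 0 and 0.06 TPM in the Veh and 39.7, 22 and 45.1 TPM in the CORT libraries (limma adjusted p = 0.000816). It passed the limit of 1 TPM through the CORT group only, which fixes its direction. Obp2a, a lipocalin, was at 1.32, 0.09 and 2.22 TPM in the Veh and 101, 28.5 and 97.1 TPM in the CORT libraries (log2 fold change 5.05, limma adjusted p = 0.00597), and Zfp981, a zinc finger gene, was at 8.26, 1.42 and 4.21 TPM in the Veh and 66.5, 94.6 and 91.3 TPM in the CORT libraries (log2 fold change 4.11, limma adjusted p = 0.00597). Gm43305, a predicted gene named after its values were seen, was at 5.27, 2.44 and 9.97 TPM in the Veh and 1241, 664 and 1989 TPM in the CORT libraries, the second largest fold of all (log2 fold change 7.58, limma adjusted p = 0.00143). Among the lower genes, the apolipoprotein L genes Apol9a and Apol9b, close copies, fell by 2.77 and 2.66 (limma adjusted p = 0.0148 and 0.00707). Cib3, a calcium-binding protein, was at 3.95, 19.5 and 12.3 TPM in the Veh and 0.40, 0.15 and 0.18 TPM in the CORT libraries (log2 fold change -3.16, limma adjusted p = 0.0148). It passed the limit of 1 TPM through the Veh group only, which fixes its direction. Snurf, from an imprinted locus, was at 9.67, 12.2 and 10.3 TPM in the Veh and 1.24, 0.88 and 3.14 TPM in the CORT libraries (log2 fold change -2.17, limma adjusted p = 0.00986). Cdh1, E-cadherin, fell by 2.13, and Depp1, a gene of the fasting response, fell by 2.12 (limma adjusted p = 0.0244 and 0.0149).

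The smaller lists also depended on single libraries. In fits that left out 1 library, the number called higher ran from 1 (without Veh1 or CORT1) to 4 (without CORT3) for gluconeogenesis, from 2 (without Veh3 or CORT1) to 5 (without CORT2 or CORT3) for amino acid breakdown, from 3 (without Veh1, Veh2, Veh3 or CORT2) to 4 (without CORT1 or CORT3) for conjugation, from 2 (without Veh1, CORT1 or CORT2) to 8 (without Veh2) for secreted signals, from 1 (without Veh1, Veh3, CORT1 or CORT3) to 2 (without Veh2 or CORT2) for cell cycle brakes and from 0 (without Veh1, Veh3, CORT1 or CORT3) to 3 (without CORT2) for heat shock genes. Female-biased genes called higher ran from 7 (without Veh1, Veh3, CORT1 or CORT3) to 9 (without Veh2). For hepatocyte markers the range was from 1 (without Veh1, Veh3 or CORT1) to 4 (without CORT2), for glycogen from 1 (without Veh1, Veh2, Veh3, CORT1 or CORT3) to 2 (without CORT2), for the urea cycle from 0 (without Veh1, Veh3, CORT1 or CORT3) to 1 (without Veh2 or CORT2), for bile acids from 1 (without Veh1 or CORT1) to 2 (without Veh2, Veh3, CORT2 or CORT3) and for folding stress from 1 (without Veh1, CORT1, CORT2 or CORT3) to 3 (without Veh2). Lower calls of amino acid breakdown fell to 0 without CORT1, the single antigen presentation call was lost without Veh1, Veh2, Veh3 or CORT1, and the lower growth hormone axis call without Veh1 or Veh3. Among immediate early genes, 0 were called lower without CORT1 or CORT2, and 1 without Veh1. The lower macrophage call was lost without Veh1, Veh3 or CORT1, the lower secreted signal without Veh1 or CORT1, and Rrm2 was the lone proliferation call, with 0 higher without Veh1 or CORT1.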

How the data were processed

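Liver tissue from 3 CORT-treated and 3 Veh mice gave 6 RNA-seq libraries (1 µg of total RNA and reads of 150 bases). Per the labels and the study's methods, the authors trimmed and aligned the reads (HISAT2, StringTie and RSEM, with build GRCm39, in the submitters' processing notes, versions not given in the sources used here) and deposited TPM values per gene and library, not pooled. Columns were matched to samples by the sample descriptions. The 6 libraries of the other tissue were not used here. The labels call the samples biological replicates, so p-values measure the spread between these animals' samples, and totals of TPM per library were 983327 to 996427. Depth cannot be read from TPM, so errors are the spread between 3 libraries.

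The 11699 genes whose group mean reached 1 TPM for Veh or CORT were tested on the log2(TPM + 1) scale, and limma 3.58.1 in R 4.3.3 (lmFit, eBayes with a trend, treatment only) was fitted across all of them, with Benjamini-Hochberg adjustment. This scale understates changes of low genes. DEGs were those with adjusted p-values up to 0.05 that changed by more than 1.5 times. An exact permutation test of 3 against 3 cannot give less than 0.1, so none is printed for single genes. Size factors for the scaled fit were medians of ratios over 11294 genes above 0 in all libraries, and ran from 0.894 to 1.11. The fits were tested on simulated data. Alternatives were scaling, a pseudocount of 0.1, no filter, a mean of 1 TPM over all libraries, the replicate number as a block, array weights, no fold limit, unadjusted p-values, and leaving out each library.

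The members, the 48 gene lists and the rules were chosen with earlier results of these data known. No set test was run, and lists overlap. Genes are named by rule (per list, up to 4 with the smallest adjusted p called both ways and the 2 with the highest mean; 12 per direction with the largest fold and no overlap, without Gm and Rik names; 5 per direction with the largest difference in TPM; and Fkbp5, Tsc22d3, Cdkn1a, Cyp2b10, Fgf21 and Nr3c1). Members of cell type marker lists that moved are also named by rule. Not all are reported here, and other named genes were chosen after their values were seen. For reads shared between near-identical genes, how the authors' quantification divided them is not given in the sources used here.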

Additional observations from a re-analysis of the deposited data

How the results depend on the processing

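Against 810 genes past both thresholds, 575 higher and 235 lower, the pseudocount of 0.1, the mean over all libraries and no fold limit left each count within 1.5 times. Scaling kept the total and the higher genes within that range and gave 469 lower genes. With no filter on low values, more genes were tested and 283 passed, 210 higher and 73 lower. Array weights gave 1874, 1319 higher and 555 lower, and unadjusted p-values gave 1808, 1166 higher and 642 lower. With the replicate number as a block, 307 passed, 220 higher and 87 lower. The labels do not say whether the replicate numbers pair the samples. Deviations of same-numbered libraries correlated at 0.038, -0.0084 and -0.12, which with 3 libraries per group cannot decide it. Leaving out each library gave 247 to 831 genes, 184 to 675 higher and 63 to 156 lower, the lowest without CORT1 and the highest without Veh2. Totals were 315 without Veh1, 303 without Veh3, 435 without CORT2 and 522 without CORT3. Of the 810, 584 remained without Veh2, 412 without CORT3 and 232 without CORT1. The cause of these shifts was not tested. Of 196 named genes, 193 kept their side of the threshold and their direction with scaling, 1 was lost and 2 were gained. Other settings cost more of these genes their call. With no filter on low values 55 of the 196 lost it, and with the replicate block 39. With 1 library left out, the number lost was 45 without Veh1, 19 without Veh2 and 44 without Veh3. It was 55 without CORT1, 33 without CORT2 and 29 without CORT3. TPM gives no depth, so it cannot be said which low genes were limited by counting.

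Some named genes, all uncalled with all 6 libraries, reversed their log2 fold change. With each library left out in turn, Fabp1 ran from -0.65 to 0.24, Igf1 from -0.18 to 0.12, Hsp90ab1 from -0.11 to 0.59 and C1qa from -0.083 to 0.60, each turning without CORT3. Calr ran from -0.20 to 0.21, turning without Veh1, and Fga from -0.24 to 0.28 and Fgg from -0.34 to 0.13, turning without CORT1. Hba-a2 ran from -0.31 to 0.38 and Hbb-bs from -0.37 to 0.39, turning without Veh2, and Hba-a2 was at -0.27 with array weights.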

Other observations

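Several secreted liver proteins changed beside those described, and the genes named here beyond the rule were chosen after their values were seen. Apoa4, an apolipoprotein of lipid-rich particles that liver and intestine both make, was at 76.2, 172 and 117 TPM in the Veh and 2691, 3840 and 555 TPM in the CORT libraries (log2 fold change 3.94, limma adjusted p = 0.0239), with CORT3 the lowest treated library. Serpina5, a protease inhibitor, was at 0.07, 0 and 0.18 TPM in the Veh and 4.45, 4.4 and 12.3 TPM in the CORT libraries (log2 fold change 2.76, limma adjusted p = 0.00907). It passed the limit of 1 TPM through the CORT group only. Of 28 coagulation genes it was the only one called higher, and 2 were called lower, 3 with scaling, but 1 without CORT3 and 0 without any other single library. These 2, F11 and Klkb1 of the contact pathway, fell by 0.62 and 0.96 in log2 fold change (limma adjusted p = 0.0478 and 0.0375). Serpine2, another inhibitor of the same family, was at 8.8, 4.42 and 4.86 TPM in the Veh and 84, 38.5 and 103 TPM in the CORT libraries (log2 fold change 3.38, limma adjusted p = 0.00626).

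Among 33 nuclear receptors, Nr3c2, the mineralocorticoid receptor, which also binds CORT, was at 1.81, 2.54 and 1.92 TPM in the Veh and 0.68, 0.80 and 0.59 TPM in the CORT libraries (log2 fold change -0.86, limma adjusted p = 0.0406), and it passed the limit of 1 TPM through the Veh group only. By zone of the liver lobule, 1 gene was called higher and 1 lower of 28 pericentral genes (7.14%, close to the 6.92% of all genes). Of 27 periportal genes 2 were called higher and 2 lower (14.8%), 2 and 3 with scaling (18.5%, against 8.65% of all genes). Leaving out single libraries took each of these 4 counts to 0: pericentral higher without Veh1 or CORT1 and lower without Veh3 or CORT1, periportal higher without Veh3 or CORT1 and lower without Veh1 or CORT2. The pericentral Notum, an inhibitor of Wnt signals, was at 21.2, 29.1 and 24.5 TPM in the Veh and 8.68, 11.8 and 7.18 TPM in the CORT libraries (log2 fold change -1.36, limma adjusted p = 0.0136), and the periportal Hsd17b6 was at 42.5, 51.3 and 28.1 TPM in the Veh and 16, 10.1 and 9.41 TPM in the CORT libraries (log2 fold change -1.69, limma adjusted p = 0.0178). Of 7 claudins, proteins of tight junctions, 1 was called higher and 1 lower, 1 and 2 with scaling. They were Cldn3, which fell by 1.29, and Cldn14, which rose by 1.81, again in log2 fold change (limma adjusted p = 0.0239 and 0.0443). Slc6a9, a glycine carrier, was at 9.11, 14.6 and 14.3 TPM in the Veh and 62.2, 58.6 and 38.2 TPM in the CORT libraries (log2 fold change 1.98, limma adjusted p = 0.00774), and Slc6a6, a taurine carrier, was at 13.5, 24 and 15.8 TPM in the Veh and 5.74, 7.84 and 9.3 TPM in the CORT libraries (log2 fold change -1.1, limma adjusted p = 0.0449).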
